A study of Mus musculus with 12 samples.

Results

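The 10 genes described here encode the machinery that cuts and displays peptides on major histocompatibility complex (MHC) class I molecules: B2m, H2-K1 and H2-D1, Tap1, Tap2 and Tapbp, Psmb8, Psmb9 and Psmb10, and Nlrc5. They were taken by symbol from a table of read counts for 22753 genes, and all 10 were found and passed the filter on low counts, which left 15179 genes for testing. The genes were chosen by results already seen in these libraries: Psmb8, B2m and Psmb10 had been picked out on their lower counts in GFP-positive than in GFP-negative cells within pairs, and the rest of the pathway was added to them. The comparison of GFP-positive with GFP-negative cells is therefore given for the 10 genes as a description, and nothing is read from their calls in it. The comparisons between clones, which did not choose the genes, were tested.

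RNA was sequenced from mouse embryonic stem cell clones 4 and 10, derived from mice in which Sphk1 is floxed and Sphk2 is deleted. GFP-positive cells, labelled Sphk1-/- Sphk2-/-, were set against GFP-negative cells, labelled Sphk1fl/fl Sphk2-/-. All groups are labelled Sphk2-/-, for the other enzyme that makes sphingosine 1-phosphate, and all were grown in serum with leukaemia inhibitory factor. All cells received 6 uM 4-hydroxytamoxifen for 48 hours before sorting on Cre-GFP, so the gate is also a sort on the transgene, and the drug without the gate was not compared. Each clone and gate had 3 libraries, 12 in all, at passages 11 to 20. The label of the GFP-positive library gave a passage 1 higher than that of the like-numbered GFP-negative library in 5 of the 6 pairs, where gate and passage cannot be told apart. Nothing in the labels says whether replicates were separate cultures or sorts, so p-values reflect the spread among these libraries only, which may be technical.

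Class I molecules carry short peptides from the cell's own proteins to the surface, where CD8 T cells and natural killer cells read them. The proteasome cuts proteins into peptides, the TAP transporter moves the peptides into the endoplasmic reticulum, tapasin holds the transporter beside empty class I molecules, and beta-2 microglobulin completes the heavy chain. Interferon gamma switches on most of these genes, through interferon-stimulated response elements (ISRE), NF-kappaB sites and the enhanceosome that NLRC5 joins. Embryonic stem cells are known for little class I at their surface.

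Library totals ran from 12968916 counts, in clone 10 GFP-negative replicate 1, to 34258395. That shallow library also needed the lowest normalization factor, 0.83, while the other 11 lay between 0.932 and 1.08. Levels below are CPM, counts scaled to the same library total, and differences within a pair are on a log2 scale that uses the normalized library size. A pair is the GFP-positive and the GFP-negative library of the same clone and replicate number, and a fit within pairs has the pair as a term. For Psmb9 the pair with the shallow library changes direction between these scales, at 7.12 CPM in the GFP-positive and 6.09 CPM in the GFP-negative library but a normalized log2 difference of -0.08. Sphk1 itself was counted at 0.701 to 2.02 CPM in clone 4 GFP-positive libraries against 1.78 to 3.02 CPM in GFP-negative ones. Clone 10 had 0.889 to 3.01 CPM in GFP-positive against 0.694 to 4.3 CPM in GFP-negative libraries, and these gene-level counts overlapped between the gates in both clones. Sphk2, deleted according to the labels, was counted at 1.89 to 7.41 CPM in clone 4 GFP-positive, 1.19 to 6.11 CPM in clone 4 GFP-negative, 5.44 to 8.13 CPM in clone 10 GFP-positive and 3.16 to 8.34 CPM in clone 10 GFP-negative libraries. Whether these reads lie in the deleted parts of Sphk1 and Sphk2 was not tested, so neither gene checks the genotype labels here. Embryonic stem cell markers summed to between 5113 and 11023 CPM over the 12 libraries, with Pou5f1 at 944 CPM or more in all 12 libraries.

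Of the 10 genes, 7 lie on mouse chromosome 17 (mm10, the build of the files). Psmb9 (chr17:34181988-34187764, minus strand), Tap1 (chr17:34187553-34197225, plus strand), Psmb8 (chr17:34197721-34201454, plus strand) and Tap2 (chr17:34203527-34216321, plus strand) follow one another in a row. Tapbp (chr17:33915899-33929288, plus strand), H2-K1 (chr17:33996017-34000333, minus strand) and H2-D1 (chr17:35262730-35267499, plus strand) lie on either side. B2m is at chr2:122147686-122153083 on the plus strand, Nlrc5 at chr8:94472763-94527272 on the plus strand and Psmb10 at chr8:105935728-105938392 on the minus strand. The library kit does not mark strand. How the counter treated overlapping genes is not given in the sources used here, and their reads could be shared or dropped. In GENCODE M21, B2m lies over its whole 5398 bases within Patl2 on the opposite strand. Psmb9 and Tap1 share 212 bases head to head. An antisense gene covers 2139 bases of Psmb8 and another covers 2710 bases of Psmb10. Of the 50-base stretches of their transcripts, 9.63% for H2-K1 and 12.8% for H2-D1 also occur in other genes, chiefly H2-Q genes and each other, so a part of their reads cannot be assigned. The share was 23.2% for Tapbp, mostly with the gene Gm19412, 11.9% for Psmb8 and 11.6% for Tap2. It was 0.338% to 4.19% for Nlrc5, Tap1 and Psmb9, and 0% for B2m and Psmb10.

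Promoter sequences are shown because interferon and NLRC5 are known to act on class I genes through such elements. RefSeq windows (GRCm38.p6), from 250 bases before to 50 after the start, were found for 8 of the 10 genes, and not for Tap2 and Nlrc5. Shown are the 3 genes of the class I molecule, which share neighbouring ISRE and kappaB matches, and Tap1, Psmb8 and Psmb10, which have no kappaB match. Capitals mark the letters searched on both strands: the ISRE as GAAANNGAA or GAANNGAAA, the kappaB consensus, TGACG (the core of a cyclic AMP response element), CCAAT and the interferon gamma activated site (GAS) as TTCNNNGAA.
B2m, chr2:122147437-122147736, plus strand: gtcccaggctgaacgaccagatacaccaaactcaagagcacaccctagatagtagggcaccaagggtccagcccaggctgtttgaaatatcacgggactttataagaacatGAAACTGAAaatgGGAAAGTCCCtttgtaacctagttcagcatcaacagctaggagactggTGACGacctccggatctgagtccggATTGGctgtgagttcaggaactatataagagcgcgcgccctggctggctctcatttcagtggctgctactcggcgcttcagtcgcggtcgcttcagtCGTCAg
H2-K1, chr17:34000284-34000583, minus strand: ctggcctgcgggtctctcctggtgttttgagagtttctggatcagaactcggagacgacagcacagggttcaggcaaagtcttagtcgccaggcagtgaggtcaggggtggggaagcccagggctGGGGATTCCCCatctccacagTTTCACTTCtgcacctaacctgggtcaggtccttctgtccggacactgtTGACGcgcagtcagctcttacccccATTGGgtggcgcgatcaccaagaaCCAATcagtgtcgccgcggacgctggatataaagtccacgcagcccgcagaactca
H2-D1, chr17:35262844-35263143, plus strand: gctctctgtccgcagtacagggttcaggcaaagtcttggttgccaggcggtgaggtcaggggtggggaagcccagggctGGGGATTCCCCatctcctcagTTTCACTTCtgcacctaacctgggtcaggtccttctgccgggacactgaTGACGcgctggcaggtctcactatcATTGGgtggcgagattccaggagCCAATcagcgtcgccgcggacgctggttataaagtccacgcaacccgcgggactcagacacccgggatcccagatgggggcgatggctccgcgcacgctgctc
Tap1, chr17:34187306-34187605, plus strand: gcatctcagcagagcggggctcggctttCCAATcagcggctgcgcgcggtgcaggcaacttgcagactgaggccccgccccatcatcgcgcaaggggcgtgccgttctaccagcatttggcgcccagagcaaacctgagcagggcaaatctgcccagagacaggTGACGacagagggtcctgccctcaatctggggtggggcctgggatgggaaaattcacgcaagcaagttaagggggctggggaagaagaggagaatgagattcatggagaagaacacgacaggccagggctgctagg
Psmb8, chr17:34197945-34198244, plus strand: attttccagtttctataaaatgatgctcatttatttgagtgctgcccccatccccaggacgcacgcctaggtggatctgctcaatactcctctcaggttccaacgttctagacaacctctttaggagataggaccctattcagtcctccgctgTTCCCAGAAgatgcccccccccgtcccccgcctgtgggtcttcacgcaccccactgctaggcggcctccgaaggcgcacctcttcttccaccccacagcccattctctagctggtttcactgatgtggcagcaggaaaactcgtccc
Psmb10, chr8:105938343-105938642, minus strand: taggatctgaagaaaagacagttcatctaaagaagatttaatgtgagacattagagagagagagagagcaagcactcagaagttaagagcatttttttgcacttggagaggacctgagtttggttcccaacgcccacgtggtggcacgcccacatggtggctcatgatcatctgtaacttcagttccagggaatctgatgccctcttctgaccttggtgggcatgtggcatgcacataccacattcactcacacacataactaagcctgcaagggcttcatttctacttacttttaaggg

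In B2m the ISRE came before the kappaB match, and in H2-K1 and H2-D1 after it, and in these 3 genes TGACG and then CCAAT followed. B2m had the ISRE spelled GAAANNGAA, which 8.56% of all 32851 windows hold. H2-K1 and H2-D1 had GAANNGAAA, held by 7.52% of windows. The kappaB consensus was in these 3 genes and in 8.46% of windows, and it reads on both strands in H2-K1 and H2-D1, where the 2 overlapping matches make a single run. TGACG was found in 5 of the 8 genes, against 20.8% of all windows, and CCAAT in 6, against 37.4%. Psmb8 held a GAS match only, a spelling found in 8.3% of windows, and Psmb10 held none of these letters. The windows of Psmb9 and Tap1 share 275 bases in opposite directions, so their matches are partly the same letters. The RefSeq starts of Psmb8, H2-D1, Psmb9 and Tapbp lie 474, 364, 434 and 3579 bases inside the gene as deposited, so other starts of these genes are not covered. H2-K1 has 2 RefSeq windows, of which the one at the deposited start is shown.

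**Figure D1:**
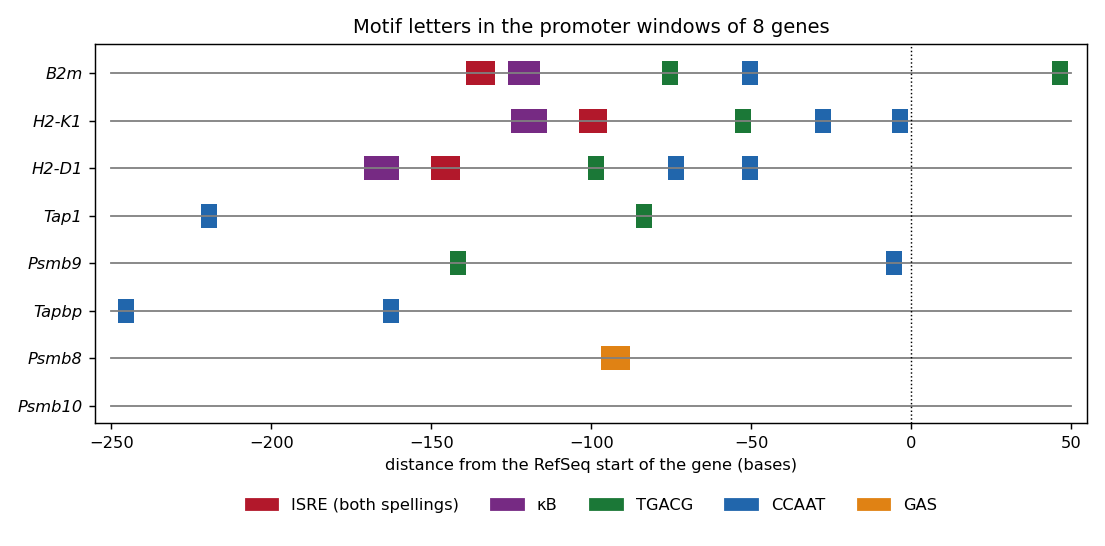
Positions of the motif letters in the RefSeq promoter windows of 8 genes, with distance from the start in bases on the horizontal axis and a coloured block for each match on either strand. B2m, H2-K1 and H2-D1 carry neighbouring ISRE and kappaB blocks, whereas Psmb10 carries no block.

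Levels were compared between genes per length, as CPM divided by the kilobases of exon (CPM per kb). B2m, the invariant light chain, was first in every group, at 94.7 ± 78.1 CPM per kb in clone 4 GFP-positive and 205 ± 157 in clone 4 GFP-negative cells. The level in clone 10 was 135 ± 119 CPM per kb in GFP-positive and 200.2 ± 232 in GFP-negative cells (SD, n = 3 each). H2-K1 and H2-D1, the classical heavy chains, and Tapbp, which encodes tapasin, followed at 26 to 61.7 CPM per kb. Psmb10 and Tap1 took the next places, at 4.76 to 16.5 CPM per kb. Psmb8, Psmb9 and Tap2 lay between 0.941 and 3.4 CPM per kb. Nlrc5, the transactivator of class I genes, was last in every group, at 0.21 to 0.56 CPM per kb. The libraries of neighbours in this order overlapped, with few exceptions. Tapbp stood above the gene after it without overlap in all groups but clone 4 GFP-negative cells. In clone 4, Psmb8 stood above Nlrc5 in both gates. In clone 10, Psmb10 stood above the gene after it in both gates.

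B2m was lower in GFP-positive cells in 5 of 6 pairs. It had 45.4, 159 and 39.9 CPM in clone 4 GFP-positive replicates 1 to 3, against 100, 332 and 96.7 CPM in GFP-negative ones. Clone 10 had 67.7, 46.9 and 234 CPM in GFP-positive replicates, against 42.6, 72.2 and 402 CPM in GFP-negative ones. Replicate 2 of clone 4 and replicate 3 of clone 10 were high in both gates, the groups overlapped in both clones, and clone 10 replicate 1 was the pair with the higher GFP-positive value. In bulk RNA, fewer cells of a type and less RNA per cell cannot be told apart. Within pairs, B2m differed by -1.14 (SE 0.21) on the log2 scale in clone 4 and by -0.38 (SE 0.21) in clone 10.

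H2-K1 and H2-D1 followed the same pattern across libraries with smaller differences. H2-K1 ranged from 55.9 to 268 CPM in clone 4 GFP-positive and 77.6 to 335 CPM in GFP-negative cells. The clone 10 range was 46.8 to 174 CPM in GFP-positive and 46.8 to 228 CPM in GFP-negative cells. H2-D1 ranged from 37.6 to 207 CPM in clone 4 GFP-positive and 49.7 to 305 CPM in GFP-negative cells, and in clone 10 from 45.5 to 179 CPM in GFP-positive and 40.9 to 270 CPM in GFP-negative cells. Each was lower in GFP-positive cells in the same 5 pairs as B2m. The log2 differences within pairs over both clones were -0.26 (SE 0.15) for H2-K1 and -0.38 (SE 0.15) for H2-D1.

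Psmb8, the immunoproteasome subunit that takes the place of Psmb5, was lower in GFP-positive cells in all 6 pairs. It had 2.45, 4.12 and 3.65 CPM in clone 4 GFP-positive replicates, against 7.16, 8.07 and 10.3 CPM in GFP-negative ones. Clone 10 had 2.83, 1.57 and 8.38 CPM in GFP-positive replicates, against 4.01, 3.19 and 17.9 CPM in GFP-negative ones. The groups did not overlap in clone 4, which 1.89% of all tested genes also showed in this direction, and they overlapped in clone 10. The log2 difference was -1.32 (SE 0.20) in clone 4 and -1.01 (SE 0.21) in clone 10. Of all tested genes, 7.29% were lower in all 6 pairs.

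Psmb10, which takes the place of Psmb7, was lower in 5 of 6 pairs. It had 17.6, 13.4 and 20.7 CPM in clone 4 GFP-positive replicates, against 29, 12.8 and 42.6 CPM in GFP-negative ones. Values in clone 10 were 11.5, 12.2 and 10.6 CPM in GFP-positive replicates, against 33.1, 18.7 and 21.3 CPM in GFP-negative ones. The 3 GFP-positive libraries of clone 10 were close together and below all 3 GFP-negative ones, an arrangement seen in 5.57% of tested genes, whereas in clone 4 the gates overlapped. The log2 difference was -0.56 (SE 0.26) in clone 4 and -1.16 (SE 0.26) in clone 10. In the authors' deposited table, Psmb10 in clone 10, at a log2 fold change of -1.07, was the 1 gene of the 10 with an adjusted p under 0.05 in either clone.

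Psmb9, which takes the place of Psmb6, ranged from 3.21 to 11.8 CPM in clone 4 GFP-positive and 5.34 to 13.9 CPM in GFP-negative cells. The clone 10 range was 3.07 to 11.7 CPM in GFP-positive and 2.54 to 9.12 CPM in GFP-negative cells. It was lower in GFP-positive cells in all 3 clone 4 pairs, as were 17.8% of tested genes, and in 1 of 3 clone 10 pairs, with log2 differences of -0.48 (SE 0.18) in clone 4 and 0.17 (SE 0.19) in clone 10.

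**Figure D2:**
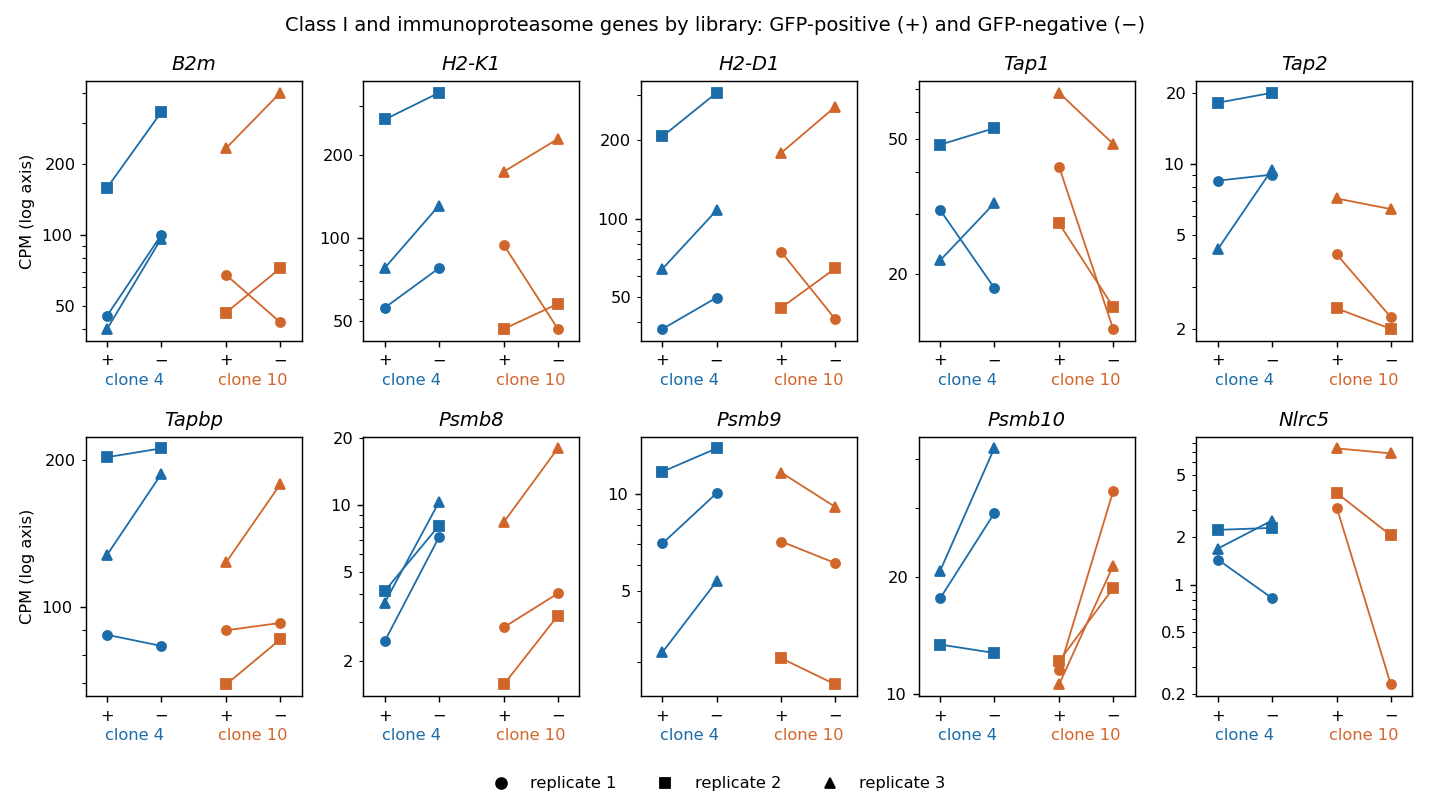
CPM (log axis) of the 10 genes in each of the 12 libraries, clone 4 in blue and clone 10 in orange, with a line joining the GFP-positive (left) and GFP-negative (right) library of each pair. Psmb8 is lower in the GFP-positive library of all 6 pairs, while Tap1 is higher in all 3 clone 10 pairs.

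Tap1, a chain of the peptide transporter, was not lower as B2m was in most pairs. It had 30.9, 48 and 22 CPM in clone 4 GFP-positive replicates, against 18.2, 53.7 and 32.3 CPM in GFP-negative ones. Clone 10 had 41.4, 28.2 and 68.2 CPM in GFP-positive replicates, against 13.8, 16 and 48.3 CPM in GFP-negative ones. It was higher in GFP-positive cells in 4 of 6 pairs, all 3 of clone 10 among them, as for 25.1% of tested genes, and the groups overlapped in both clones. The log2 difference was 0.02 (SE 0.23) in clone 4 and 0.83 (SE 0.23) in clone 10.

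Tap2, which encodes the partner chain of TAP1 in the transporter, had 8.51, 18.3 and 4.35 CPM in clone 4 GFP-positive replicates, against 9.03, 20.1 and 9.47 CPM in GFP-negative ones. Values in clone 10 were 4.13, 2.44 and 7.15 CPM in GFP-positive replicates, against 2.24, 1.99 and 6.44 CPM in GFP-negative ones. All 3 clone 4 pairs were lower and all 3 clone 10 pairs higher in GFP-positive cells, an arrangement that 1.39% of tested genes shared. Tapbp ranged from 87.8 to 203 CPM in clone 4 GFP-positive and 83.3 to 211 CPM in GFP-negative cells. The clone 10 range was 69.5 to 123 CPM in GFP-positive and 85.9 to 178 CPM in GFP-negative cells. Its log2 difference over both clones was -0.29 (SE 0.09), the narrowest error of the 10 genes.

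Nlrc5 had 1.44, 2.23 and 1.69 CPM in clone 4 GFP-positive replicates, against 0.821, 2.29 and 2.55 CPM in GFP-negative ones. Clone 10 had 3.09, 3.82 and 7.35 CPM in GFP-positive replicates, against 0.231, 2.05 and 6.83 CPM in GFP-negative ones. The lowest of these values, in the shallow library, rests on 3 reads. Nlrc5 was higher in GFP-positive cells in 4 of 6 pairs, and its log2 difference over both clones was 0.49 (SE 0.34). The gates overlapped in both clones.

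Set over both clones, 0 of the 10 genes were called in edgeR's quasi-likelihood fit without pairing at an adjusted p under 0.05, where 0.158% of all tested genes were called. The same fit had 2 of the 10 at an unadjusted p under 0.05, beside 6.77% of all tested genes. Limma-voom and DESeq2 without pairing also called 0 of the 10. Within pairs, edgeR called 3 of the 10, Psmb8, Psmb10 and B2m, all lower, at a background of 3.36% in either direction and 0.85% lower. Because the earlier choice of genes used this contrast, nothing is read from that count. It moved with the pair left out: it was 5 without clone 10 replicate 1 (H2-D1 and H2-K1 added), 2 without clone 4 replicate 2 or clone 10 replicate 2, and 1 without clone 4 replicate 1, clone 4 replicate 3 or clone 10 replicate 3. In clone 4 within pairs 0 of the 10 were called by edgeR at a background of 0.119%. An unadjusted p under 0.05 was reached by 5 of the 10 and by 7.42% of all tested genes. DESeq2 within pairs called 2 of the 10 in clone 4, and 182 of all 15179 genes. In clone 10 within pairs Psmb8 and Psmb10 were called, at a background of 4.22%. Without clone 10 replicate 1, the pair with the shallow library, the calls were B2m, H2-D1 and Psmb8, beside 644 of all genes. Psmb10 alone was called without clone 10 replicate 2 (485 of all genes), and 0 without clone 10 replicate 3 (131 of all genes). The fit on clone 10 libraries alone called 0 of the 10, and DESeq2 within pairs also called Tap1 and Tapbp.

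**Figure D3:**
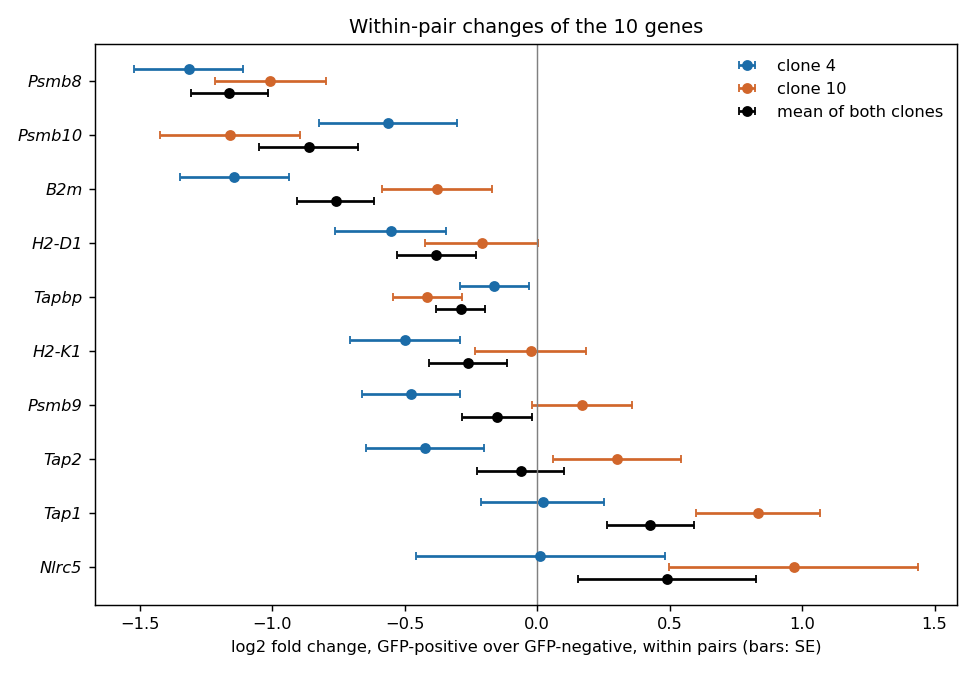
Log2 fold change of GFP-positive over GFP-negative cells within pairs for the 10 genes, with bars of 1 SE, for clone 4 (blue), clone 10 (orange) and the mean of both (black). Psmb8 is lowest at -1.16 over both clones and Nlrc5 highest at 0.49, and the clone 10 points of Tap1, Tap2, Psmb9 and Nlrc5 lie above 0.

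Whether the difference between gates was unequal in the 2 clones was tested as an interaction. Of the 10 genes, 0 were called by edgeR without pairing or within pairs, where 0% of all genes were called, and DESeq2 within pairs also called 0 of the 10. Within pairs, B2m, Tap1 and Psmb9, 3 of the 10, had an unadjusted p under 0.05, as had 1167 of all 15179 genes. Without pairing it was 0 of the 10 and 140 of all genes. The clone 10 difference exceeded that of clone 4 by 0.76 (SE 0.29) for B2m, 0.81 (SE 0.33) for Tap1, 0.65 (SE 0.26) for Psmb9 and 0.73 (SE 0.33) for Tap2, on the log2 scale. Their adjusted p-values in edgeR within pairs were 0.624 for B2m, 0.634 for Tap1, 0.634 for Psmb9 and 0.648 for Tap2, so a difference between clones was not shown for any of them.

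Clone 10 was set against clone 4 within each gate, a comparison that had no part in choosing the genes. None of the 10 was called in either gate by edgeR, where 1.11% of tested genes were called among GFP-positive and 0.0461% among GFP-negative cells. At an unadjusted p under 0.05 in edgeR, the count was 0 in GFP-positive and 1 in GFP-negative cells. Of all tested genes, 14.3% in GFP-positive and 11.9% in GFP-negative cells had such a p. Limma-voom and DESeq2 also called 0 of the 10. In GFP-negative cells Tap2 had 2.24, 1.99 and 6.44 CPM in clone 10 against 9.03, 20.1 and 9.47 CPM in clone 4. The clones did not overlap, which was so in this direction for 7.03% of tested genes, and the log2 difference was -1.72 (SE 0.60, adjusted p = 0.288). In GFP-positive cells the Tap2 difference was -1.15 (SE 0.59, adjusted p = 0.407) and the clones overlapped. Nlrc5 in GFP-positive cells went the other way, at 3.09, 3.82 and 7.35 CPM in clone 10 against 1.44, 2.23 and 1.69 CPM in clone 4, without overlap, as in 12.5% of tested genes. Its log2 difference was 1.43 (SE 0.78, adjusted p = 0.448), which became 0.59 with passage as a term. Passages were 12, 18 and 20 in clone 10 and 11, 14 and 16 in clone 4 for GFP-positive cells, and 11, 17 and 19 in clone 10 and 11, 13 and 15 in clone 4 for GFP-negative cells. Fibroblast markers, described further on, were called in this comparison for Vim alone, which rose by 1.8 (SE 0.32, adjusted p = 0.0314) in clone 10 GFP-positive cells. Over the 10 genes the median log2 difference between clones was 0 in GFP-positive and -0.24 in GFP-negative cells. With a library left out it ranged from -0.54 (without clone 10 GFP-positive replicate 3) to 0.57 (without clone 4 GFP-positive replicate 2) in GFP-positive cells. In GFP-negative cells it ranged from -0.98 (without clone 10 GFP-negative replicate 3) to 0.07 (without clone 4 GFP-negative replicate 2). With passage as a term it was -0.38 in GFP-positive and -0.57 in GFP-negative cells, so no direction is drawn from these medians.

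The libraries of a group lay further apart at the median of these genes than at the median of all tested genes. The median ratio of the highest to the lowest library of a group was 2.99 over the 10 genes, against 1.71 over all tested genes, in clone 4 GFP-positive cells, and 3.03 against 1.84 in clone 4 GFP-negative cells. In clone 10 it was 3.32 against 1.47 in GFP-positive cells and 4.23 against 1.96 in GFP-negative cells. The most uneven gene in the clone 10 GFP-negative group was Nlrc5 and the most even of the 10 in any group was Psmb10 in clone 10 GFP-positive cells, at a ratio of 1.15. Each gene was correlated over the 12 libraries with the mean of the other 9, as a description. H2-K1 reached 0.95, H2-D1 0.92 and B2m 0.89, the genes from Tapbp down to Psmb9 0.63 to 0.79, Nlrc5 0.33, and Psmb10 -0.31.

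Genes with the most similar course over the 12 libraries were sought among 11834 genes whose average log2 CPM was 1 or more. These correlations rest on libraries that share a clone, a pair and a depth, and are a description. The highest correlations with the mean of the 10 genes were 0.96 for Mxra8, 0.94 for Adam11, 0.93 for Plekhm2, 0.93 for Serpinf1, 0.92 for Sdc3, 0.92 for H2-T22, 0.92 for Galns and 0.92 for Cpe. H2-T22, a non-classical class I heavy chain, was the gene among them from the class I family. Over the 6 pair differences the closest genes were Nck2 and Izumo4, at 0.995 and 0.989, then Tbx15 and Ccdc158.

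Each immunoproteasome subunit was also set against the standard subunit whose place it takes, as a percentage of the sum of both in CPM per kb. Psmb8 and Psmb10 had been picked out on their lower counts in GFP-positive cells, so their shares are a description. How often shares formed from other genes differ in this way was not tested. Psmb10 made up 13.4% ± 2.6 of the Psmb10 and Psmb7 sum in clone 4 GFP-positive and 18% ± 7.9 in GFP-negative cells. The clone 10 share was 9.05% ± 0.45 in GFP-positive and 15.2% ± 1.3 in GFP-negative cells (SD, n = 3 each). The share was lower in GFP-positive cells in all 6 pairs, although in clone 4 replicate 2 it was 11% in GFP-positive and 11.1% in GFP-negative cells. Psmb8 made up 1.09% ± 0.29 of its sum with Psmb5 in clone 4 GFP-positive and 2.32% ± 0.73 in GFP-negative cells. The clone 10 share was 1.19% ± 0.93 in GFP-positive and 1.97% ± 2.06 in GFP-negative cells, and the share was lower in GFP-positive cells in 5 of 6 pairs. The pair with the shallow library was the exception. Psmb9 stayed between 0.43% and 2.03% of its sum with Psmb6 and was lower in 3 of 6 pairs.

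**Figure D4:**
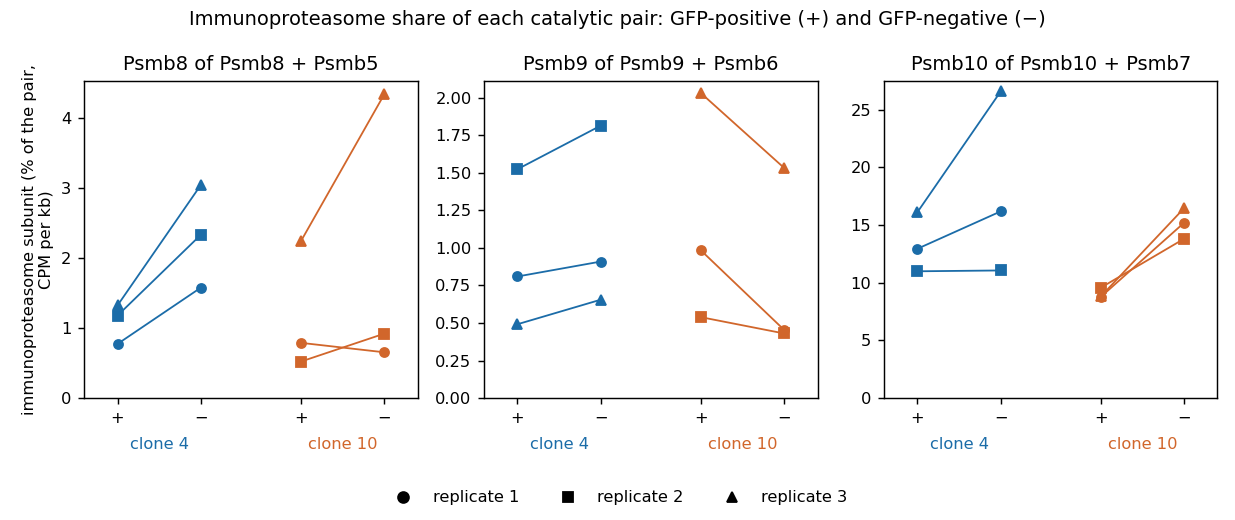
Immunoproteasome subunit as a percentage of itself plus its standard counterpart (CPM per kb) in each library, with lines joining the GFP-positive (left) and GFP-negative (right) library of each pair and vertical axes that start at 0 and differ between panels. In clone 10 the Psmb10 share is 8.77% to 9.57% in GFP-positive and 13.8% to 16.5% in GFP-negative libraries.

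Other genes of the pathway were counted within pairs over both clones, beside the background of 0.85% lower and 2.51% higher. The lists were chosen with earlier results of these data known, so the counts are a description. An unadjusted p under 0.05 was common in this fit, at 3998 of all 15179 genes or 26.3%. Of the 14 subunits of the standard core proteasome, 0 were called by edgeR and by edgeR without pairing, while 14 had a negative log2 difference. Their median was -0.27, and in the same fit the median was -0.27 for the 10 genes and 0.003 for all tested genes. An unadjusted p under 0.05 was reached by 3 of the 14 subunits, and DESeq2 within pairs also called 0. Psmb5, Psmb6 and Psmb7 differed most in clone 10 replicate 1, the pair with the shallow library, by -1.08, -1.20 and -0.92. Their medians over the 6 pairs were -0.20, -0.16 and -0.04. Of 9 proteasome activators and assembly factors 0 were called, though 6 had an unadjusted p under 0.05, and DESeq2 within pairs called 1, Psme2. Psme2 and Psme1, the subunits of the interferon-inducible activator, had log2 differences of -0.53 (SE 0.13, adjusted p = 0.0672) and -0.44 (SE 0.16, adjusted p = 0.144). Of 11 genes of peptide trimming and loading, among them Erap1, the trimming peptidase of the endoplasmic reticulum, 0 were called by edgeR or by DESeq2 within pairs, with 3 at an unadjusted p under 0.05. These were Tpp2, a peptidase, at a log2 difference of 0.33 (SE 0.12, adjusted p = 0.152), Erap1 at -0.39 (SE 0.16, adjusted p = 0.174) and Lnpep, an aminopeptidase, at 0.65 (SE 0.27, adjusted p = 0.175), and the median of the 11 was 0.03.

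Of the 16 other class I heavy chains that could be tested, 2 fell and none rose within pairs. H2-T23, which encodes the Qa-1 molecule read by natural killer cells, fell by 1.09 (SE 0.20, adjusted p = 0.0248), with 5 of 6 pairs lower. H2-T22 fell by 0.57 (SE 0.12, adjusted p = 0.0376), with 6 of 6 pairs lower. With a pair left out the count was 4 without clone 10 replicate 1, 1 without clone 10 replicate 2 and 0 without any of the other 4 pairs. Of 20 regulators of class I transcription, 0 were called over both clones. DESeq2 within pairs called Irf1 lower and Irf8 higher, and in edgeR 3 had an unadjusted p under 0.05. Irf1, an activator that binds the ISRE, had a log2 difference of -0.41 (SE 0.10, adjusted p = 0.0615). Irf8 rose in clone 10 within pairs, by 1.64 (SE 0.29, adjusted p = 0.0194). Of 7 interferon receptor and kinase genes 1 fell, Ifngr2, a chain of the interferon gamma receptor, by 0.61 (SE 0.12, adjusted p = 0.0324), lower in all 6 pairs. It was called without clone 10 replicate 1 and lost without any other pair.

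Of the 26 interferon-stimulated genes outside this set, 4 fell within pairs and none rose. They were Ifit3 at -1.40, Ifi44 at -1.49, Isg15 at -0.60 and Gbp2 at -0.69, with adjusted p-values of 0.019, 0.0234, 0.0315 and 0.0442 in edgeR. Isg15, a ubiquitin-like modifier, and Gbp2, an interferon gamma induced GTPase, were lower in all 6 pairs. The count was 9 without clone 10 replicate 1, 2 without clone 10 replicate 2 or clone 4 replicate 3, and 0 without clone 10 replicate 3, clone 4 replicate 1 or clone 4 replicate 2. Of the 8 tested genes of MHC class II presentation, 1 rose. Ciita, the class II counterpart of Nlrc5, rose by 2.81 (SE 0.46, adjusted p = 0.0176). It averaged 0.86 CPM in GFP-positive and 0.096 CPM in GFP-negative cells of clone 4, and 6.68 CPM in GFP-positive and 0.78 CPM in GFP-negative cells of clone 10. The Ciita call was lost without clone 10 replicate 3, clone 4 replicate 1 or clone 4 replicate 3. Without pairing, edgeR called 0 genes of any of these lists over both clones, while DESeq2 called Ciita.

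Fibroblast markers were counted in the same way, from a list also chosen with earlier results of these data known. Of 22 fibroblast markers, genes that mark mesenchymal cells, 21 could be tested. Within pairs 8 fell and none rose, beside 0.85% of all tested genes called lower. Timp1 fell by 0.87, Postn by 1.58, Tagln by 1.26 and S100a4 by 1.86, with adjusted p-values of 0.00167, 0.00362, 0.00729 and 0.00781. The others were Acta2, Dcn, Loxl1 and Vim. The count was 13 without clone 10 replicate 1 and 5 or 6 without any other pair. Without pairing it was 0 by edgeR, with 6 at an unadjusted p under 0.05, beside 6.77% of all tested genes. DESeq2 without pairing called 4, all lower, beside 10 called lower of all 15179 genes. The summed level of the 22 was 1627 to 2557 CPM in clone 4 GFP-positive and 2006 to 3723 CPM in GFP-negative cells. In clone 10 it was 1892 to 2905 CPM in GFP-positive and 1292 to 4347 CPM in GFP-negative cells. Fn1 and Sparc had the most reads of the 22, at 397 to 1859 and 455 to 980 CPM over the 12 libraries. The mean log2 CPM of the 22 was lower in the GFP-positive library by 0.98, 1.09 and 1.11 in clone 4. In clone 10 it was higher by 0.73 in replicate 1 and lower by 0.73 and 0.86 in replicates 2 and 3. The pairs with a lower level of fibroblast markers were the 5 pairs in which B2m, H2-K1 and H2-D1 were lower. Whether the markers came from fibroblasts, and whether such cells had a part in those differences, was not tested. In clone 10 replicate 1, the pair with the shallow library, Psmb8 and Psmb10 were lower in GFP-positive cells while the marker level was higher. Psmb10 was higher in clone 4 replicate 2, where the marker level was lower. Lum was at 0 in 4 libraries, while every other marker of the 22 was counted in all 12 libraries, Col1a1 at 7.4 to 217 CPM.

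**Figure D5:**
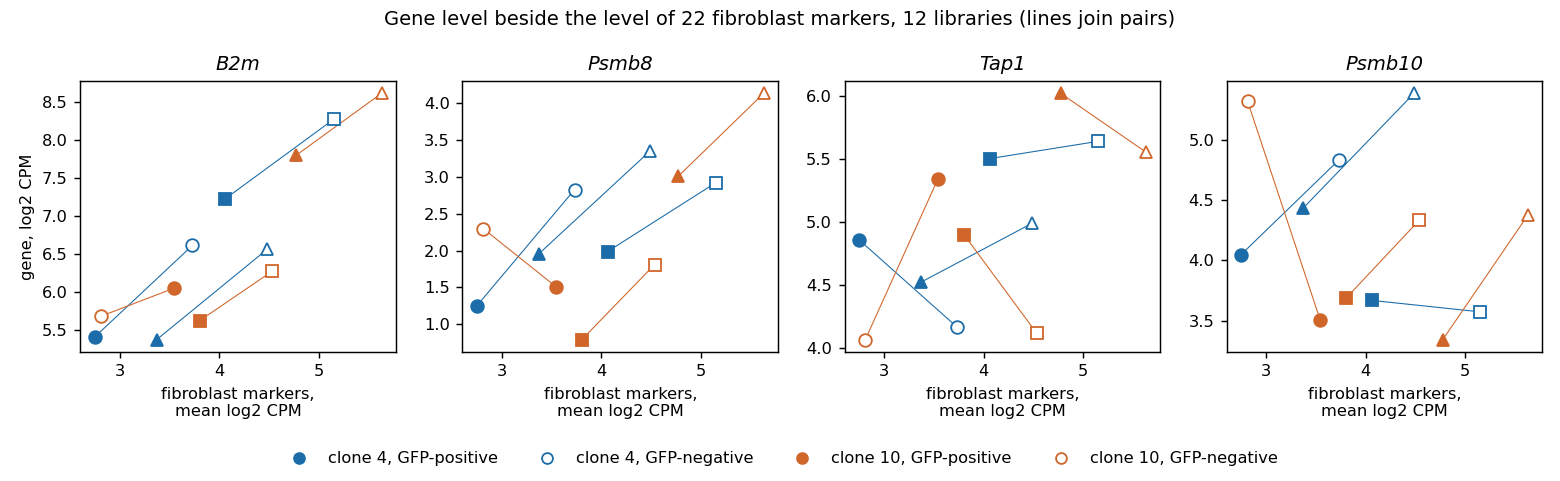
Log2 CPM of B2m, Psmb8, Tap1 and Psmb10 against the mean log2 CPM of 22 fibroblast markers in the 12 libraries, filled for GFP-positive and open for GFP-negative, with lines joining pairs. B2m is highest in the GFP-negative library of clone 10 replicate 3, at 402 CPM, and Psmb10 in that of clone 4 replicate 3, at 42.6 CPM.

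Blood cell markers summed to 219 to 279 CPM in clone 4 GFP-positive, 213 to 281 CPM in clone 4 GFP-negative, 270 to 303 CPM in clone 10 GFP-positive and 258 to 318 CPM in clone 10 GFP-negative cells. Most of this was Laptm5 and Cd68, and 0 of 5 tested markers were called by edgeR or DESeq2 within pairs, with 0 at an unadjusted p under 0.05 in edgeR. Ptprc, the pan-leukocyte gene, did not pass 0.151 CPM in any library and was at 0 in 6, and Lyz2 was at 0 in 8. Of 10 embryonic stem cell markers 0 were called within pairs by edgeR and 1, Utf1, lower by DESeq2. In edgeR 4 had an unadjusted p under 0.05, Utf1, Esrrb, Pou5f1 and Tdgf1, all lower in GFP-positive cells. Of the 10 markers, 9 had a negative log2 difference within pairs, and the median was -0.22.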

How the data were processed

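Total RNA was sequenced in 12 libraries. The authors deposited unnormalized read counts per gene, and per the submitters' processing notes STAR 2.3.0e, HTSeq 0.6.0, DESeq, DESeq2 and mm10 were used. No annotation release or strand mode is given in the sources used here. The authors' deposited tables per clone also hold log2 fold changes and p-values. The 10 genes and the gene lists were chosen with earlier results of these data known. Counts were tested with edgeR 4.0.16 (R 4.3.3, TMM, quasi-likelihood F test), with a term per group, 8 residual degrees of freedom and Benjamini-Hochberg adjustment over 15179 genes. The filter asked for a level worth 10 counts in at least 3 libraries and 15 counts in total, and 7574 genes were not tested. Calls are adjusted p-values under 0.05. Same-numbered libraries of a clone deviated together from their group means (r 0.548 to 0.822 for 6 pairs). Other pairs of a clone had r -0.541 to -0.228, but deviations within a group sum to 0, so these partly offset the former. Unlike-numbered libraries of different clones reached 0.683, so the correlations do not establish the pairing. The numbers were taken to pair the libraries of a clone, and a second fit held the pair as a block ("within pairs", 4 residual degrees of freedom). The fitting code was tested on simulated counts. DESeq2 1.42.0, limma 3.58.1 (voom), other filters, a passage term and left-out libraries were alternatives. Exon lengths came from GENCODE M21 and promoters from RefSeq. From each other list up to 4 genes with the smallest p within pairs over both clones were named; genes named by likeness were the 8 closest over libraries and the 5 closest over pair differences, without predicted or clone names, and some results under this rule are not reported here. A few others, the 2 called in clone 10 alone among them, were named after their values were seen.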

Additional observations from a re-analysis of the deposited data

Results flagged for a closer look

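Tap2 stood out because every clone 4 pair was lower and every clone 10 pair higher in GFP-positive cells. The clone 10 difference exceeded the clone 4 one by 0.58 on the log2 scale (SE 0.82) without pairing, in edgeR, and by 0.73 (SE 0.33, adjusted p = 0.648) within pairs. Neither fit called it.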

How the results depend on the processing

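Without pairing, 0 of the 10 genes were called in any comparison under any alternative. The replicate block, which is the edgeR fit within pairs, called 3 over both clones and 2 in clone 10. Over both clones, all genes called numbered 24, against 286 by DESeq2, 1 by limma-voom, 67 with no filter, 138 with a passage term, 510 with the replicate block and 0 to 95 with a library left out. In clone 4 they numbered 0, against 33 by DESeq2 and 18 with the replicate block. In clone 10 they numbered 0, against 289 by DESeq2, 20 by limma-voom, 6 with no filter, 86 with a passage term, 641 with the replicate block and 0 to 100 with a library left out. Between clones they numbered 168 in GFP-positive cells, against 890 by DESeq2, 416 by limma-voom, 376 with a passage term, 595 with a replicate block by number across clones and 0 to 309 with a library left out. In GFP-negative cells they numbered 7, against 424, 11, 22 and 136 under the same 4 alternatives, 4 with no filter and 0 to 17 with a library left out. Same-numbered libraries of different clones correlated at -0.425 to 0.588 in their deviations and unlike-numbered ones at -0.448 to 0.683. The numbers therefore do not pair libraries across clones, yet some libraries of the 2 clones deviated together. Replicate 1 of both clones correlated at 0.399 to 0.588. Clone 4 replicate 3 correlated with clone 10 replicate 2 at 0.54 to 0.683, and clone 4 replicate 2 with clone 10 replicate 3 at 0.387 to 0.53. Whether the 6 pairs are independent across clones was not tested.

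Within pairs, DESeq2 called 1442 genes over both clones (3 of the 10 genes) and 182 in clone 4 (2 of the 10). It called 1573 in clone 10 (4 of the 10) and 62 for the interaction. Fitted on a single clone's libraries within pairs, 175 genes were called in clone 4 (3 of the 10) and 263 in clone 10 (0 of the 10). With a pair left out the calls were 124 to 972 over both clones (1 to 5 of the 10), 0 to 205 in clone 4 (0 to 4), 131 to 644 in clone 10 (0 to 3) and 0 to 1 for the interaction. The Nlrc5 difference between clones in GFP-negative cells, 0.77, became -0.37 with a passage term and ranged from -0.46 (without clone 10 GFP-negative replicate 3) to 1.29 with a library left out. The causes were not tested. Depth limits Nlrc5 most, at 3 reads in the shallowest library.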
